A study of Mus musculus with 9 samples.

Results

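Mitosis and cytokinesis genes encode the machinery that condenses, attaches and separates chromosomes and then cuts the dividing cell apart. The 48 genes described here were taken from a list of that machinery and sorted by role into 9 subgroups: kinases and cyclins, spindle checkpoint, anaphase onset, chromosomal passenger complex, kinetochore, spindle, condensin with topoisomerase, cytokinesis, and a regulator with a proliferation marker. No expression value entered the sorting, but the members were chosen with earlier results of these data known. They are 48 of the 55335 genes listed in the count tables, and 48 of the 13611 genes that passed the filter on low counts, so no member was lost. Their levels were compared between 3 groups of cells of the murine breast carcinoma line D2A1-d, with 3 samples in each group. The control group carried a non-targeting hairpin (NTC), and its genotype is labelled WT. The other groups carried a short hairpin RNA against Med1, either shMed1 #2 or shMed1 #4, and are labelled Med1 Knockdown. All 9 samples were transduced cells grown in medium with serum, with no further treatment named. The labels do not say whether the transduced cells were pools or clones. They call the samples of a group biological replicates, but nothing says that these came from separate cultures, so the p-values reflect the spread among these samples and nothing wider, and that spread may be technical.

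Cells divide by raising a set of proteins from G2 to mitosis and destroying them at its end. Cyclin-dependent kinase 1 with A- and B-type cyclins drives entry, the spindle checkpoint holds the anaphase-promoting complex inactive until every kinetochore is attached, and that complex then releases separase to split sister chromatids. Most genes of this set are transcribed late in the cell cycle, and many carry a short promoter element, the cell cycle homology region, that is bound by the DREAM repressor in resting cells and by MuvB with B-Myb and FOXM1 in dividing ones. The gene targeted here, Med1, encodes part of Mediator, the large coactivator through which transcription factors reach RNA polymerase II.

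Library totals were 8123918 to 8879982 counts. Levels are given as CPM, read counts relative to the library total after scaling by TMM, a factor of 0.982 to 1.02 that corrects for differences in RNA composition. Med1 itself had a mean of 84.28 CPM in NTC, 23.98 with shMed1 #2 and 25.71 with shMed1 #4, which checks the labels. Of 10 epithelial markers only Krt8 and Krt18 passed the filter, and Epcam and Krt5 had no count in any library. The epithelial markers summed to 56.97 to 58.57 CPM in NTC, 19.94 to 23.34 with shMed1 #2 and 41.76 to 52.37 with shMed1 #4. The 10 mesenchymal markers summed to 4225 to 4412, 4818 to 5032 and 5020 to 5222 CPM in the same order, nearly all of it Fn1 and Vim. Of the 9 that passed the filter, 2 were higher and 3 lower with shMed1 #2 (median log2 fold change -0.04), and 2 higher and 1 lower with shMed1 #4 (median -0.0075). Leukocyte markers summed to 15.39 to 16.44, 12.1 to 13.24 and 11.79 to 13.45 CPM, nearly all of it Csf1r, and Itgam, Adgre1 and Cd3e had no count in any library. Endothelial markers stayed at 0.348 to 1.08 CPM. Mitochondrial genes took 3.73% to 3.99% of counts in NTC, 3.89% to 3.97% with shMed1 #2 and 4.31% to 4.52% with shMed1 #4. The part of these differences in the results below was not tested.

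The mitosis and cytokinesis genes were higher as a set in the hairpin libraries, by a modest amount. Their summed level was 9223.7, 9107.8 and 8882.2 CPM in the NTC libraries, 10130, 10290 and 10218 CPM with shMed1 #2, and 10584, 10778 and 10331 CPM with shMed1 #4. All 6 hairpin libraries lay above all 3 NTC libraries. The mean sum was 12.6% above NTC with shMed1 #2 and 16.5% above NTC with shMed1 #4. In RNA from a cell population, more cells in mitosis and more of these transcripts per cell cannot be told apart.

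Single genes were tested with edgeR's quasi-likelihood test over all 13611 genes and called at a Benjamini-Hochberg adjusted p under 0.05. With shMed1 #2, 32 members were called higher, 6 lower and 10 not called. This stands beside 43.7% of all tested genes called with that hairpin, 21.8% higher and 21.9% lower. With shMed1 #4, 33 members were called higher, 1 lower and 14 not called, beside 28.2% of all tested genes, 14% higher and 14.1% lower. The median log2 fold change of the members was 0.20 with shMed1 #2 and 0.21 with shMed1 #4, and the medians over all tested genes were -0.0035 and 9e-04. Both comparisons use the same NTC libraries, so their directions are not independent of each other. Against the mean of both hairpins 35 members were higher, 0 lower and 13 not called, where 39.9% of all tested genes were called, 19.7% higher and 20.2% lower. Of these higher calls, those of Mki67, Kif2c, Racgap1, Cenpe, Mad2l1, Incenp and Smc4 were lost in at least 1 of 18 alternative settings. At an unadjusted p under 0.05, edgeR also gave 0 lower members in that contrast, and DESeq2 called 0 lower; scaling by library size alone gave 1, Ncapd2.

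Every member is expressed well above the filter, and abundant genes were called higher more often than the table as a whole. Among the 8567 tested genes whose mean reached 4 log2 CPM, a range that holds all 48 members, 30.2% were called higher with shMed1 #2 and 19.5% with shMed1 #4. The corresponding shares of the members were 66.7% and 68.8%. The changes were small: 0 members changed 2-fold or more with either hairpin, and the largest were a log2 fold change of 0.48 for Anln with shMed1 #2 and 0.47 for Kif20a with shMed1 #4. For 25 members (52.1%) all 6 hairpin libraries lay above all 3 NTC libraries. This held for 13.4% of all tested genes and 18.9% of those whose mean reached 4 log2 CPM.

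**Figure D1:**
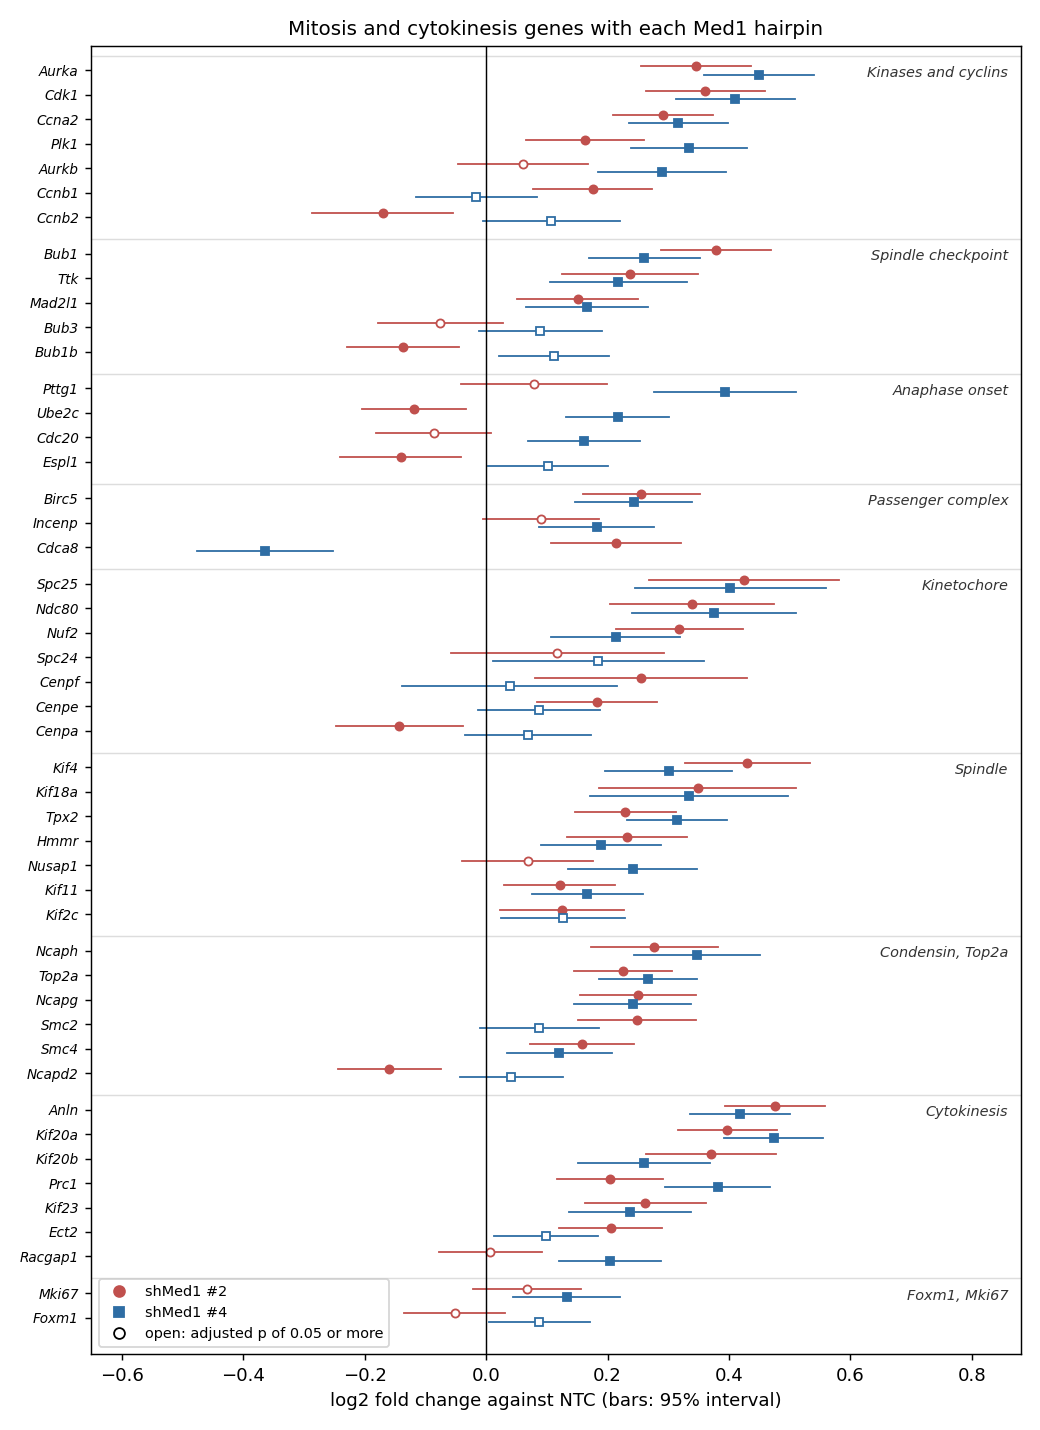
Log2 fold change against NTC (horizontal axis) of the 48 genes, grouped by role, with shMed1 #2 (red circles) and shMed1 #4 (blue squares); bars are 95% intervals of the fit and open symbols mark an adjusted p of 0.05 or more. Values are above 0 for 39 genes with shMed1 #2 and for 46 with shMed1 #4, the 4 genes of anaphase onset sit lower with shMed1 #2 than with shMed1 #4, and Cdca8 lies at 0.21 with shMed1 #2 and -0.36 with shMed1 #4.

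The members' promoters were searched for short elements, the cell cycle homology region among them. Many genes of such a list are known to carry that region, whatever their change here. RefSeq windows on GRCm38.p6, from 250 bases before to 50 bases after the gene start, were found for 40 of the 48 genes; Foxm1, Spc24, Incenp, Aurkb, Tpx2, Ccna2, Kif20a and Smc4 had none in the table. Each window was searched on both strands for TTTGAA or TTCGAA, words of the cell cycle homology region. It was also searched for CCAAT, the letters bound by NF-Y, and for TTGGCGC or TTCCCGC, letters of E2F sites. Below, a homology region means a match to TTTGAA or TTCGAA, and no other form of it was searched. TTCGAA reads the same on both strands, and TTGGCGC can share bases with a CCAAT match. A homology region was found in 31 of the 40 genes (77.5%) and in 21.7% of all 27025 genes of the table, or 16.3% of the tested genes with a window. In 28 of the 40 genes (70%) it began within 50 bases of the gene start, which held for 6.12% of all genes. CCAAT was present in 29 members (72.5%), in 41.1% of all genes and in 43.5% of the tested genes. Either E2F word was present in 8 members (20%), in 7.79% of all genes and in 14.5% of the tested genes with a window. In only the 250 bases before the gene start, a homology region was found in 16 members (40%), beside 19.6% of all genes and 14.6% of the tested genes. By call, a homology region was found in 16 of 21 members with a window that were higher with both hairpins. It was found in 6 of 6 that were lower with shMed1 #2, and in 9 of the 13 others. CCAAT was found in 13, 6 and 10 of these, in the same order. A match is a description of letters and shows no binding, and its part in the changes was not tested.

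The following windows cover the 120 bases before the RefSeq gene start, written 5′ to 3′ on the gene's strand, with capitals for homology regions and CCAAT on either strand. They were chosen with the motif positions and fold changes known. Cdk1 (chr10:69352913-69353032, minus strand), Top2a (chr11:99024190-99024309, minus strand) and Ncapg (chr5:45669805-45669924, plus strand) are genes that rose with both hairpins. Cdc20 (chr4:118437344-118437463, minus strand), Ube2c (chr2:164769809-164769928, plus strand) and Espl1 (chr15:102296173-102296292, plus strand) are anaphase genes that were higher with shMed1 #4 than with shMed1 #2. Ccnb1 (chr13:100786487-100786606, minus strand) and Pttg1 (chr11:43425982-43426101, minus strand) differed between the hairpins, in opposite directions. Their RefSeq windows hold neither TTTGAA nor TTCGAA.
Cdk1: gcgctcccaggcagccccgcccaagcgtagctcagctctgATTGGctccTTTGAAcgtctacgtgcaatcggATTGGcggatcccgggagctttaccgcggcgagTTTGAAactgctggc
Top2a: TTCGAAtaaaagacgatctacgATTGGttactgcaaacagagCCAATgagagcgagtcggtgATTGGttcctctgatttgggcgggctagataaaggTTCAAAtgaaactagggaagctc
Ncapg: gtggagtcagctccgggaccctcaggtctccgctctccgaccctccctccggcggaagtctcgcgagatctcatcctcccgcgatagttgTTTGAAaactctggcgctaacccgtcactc
Cdc20: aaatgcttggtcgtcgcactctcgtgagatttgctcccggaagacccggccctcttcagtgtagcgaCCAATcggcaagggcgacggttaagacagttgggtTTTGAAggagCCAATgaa
Ube2c: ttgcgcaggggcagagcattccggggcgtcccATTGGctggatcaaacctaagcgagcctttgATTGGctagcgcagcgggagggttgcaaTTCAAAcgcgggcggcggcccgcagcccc
Espl1: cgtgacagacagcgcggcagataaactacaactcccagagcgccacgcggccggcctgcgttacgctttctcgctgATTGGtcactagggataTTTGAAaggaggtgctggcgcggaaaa
Ccnb1: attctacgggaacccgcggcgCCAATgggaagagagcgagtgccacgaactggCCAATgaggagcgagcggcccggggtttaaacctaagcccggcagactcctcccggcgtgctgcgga
Pttg1: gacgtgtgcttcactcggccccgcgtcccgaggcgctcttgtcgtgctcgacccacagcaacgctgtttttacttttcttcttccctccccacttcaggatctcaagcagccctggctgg
Cdk1 holds 2 homology regions and 2 CCAAT matches in this stretch, and Top2a holds 2 and 3. Ncapg has a homology region but no CCAAT. Cdc20, Ube2c and Espl1 carry both kinds of element, as Cdk1 does. Over all windows, 27 of the 40 members hold both a homology region and CCAAT. Ccnb1 has 2 CCAAT matches, and the Pttg1 stretch has neither element. In GENCODE M21, however, Pttg1 begins at chr11:43426251, so the printed stretch lies inside the gene. Its lack of elements therefore does not describe the bases before the GENCODE start. Ccnb1 begins at chr13:100786570 there, so most of its printed stretch also lies inside the gene. The printed stretches of Cdk1, Ncapg, Cdc20, Ube2c and Espl1 reach into their GENCODE genes by fewer bases. RefSeq starts used for other members, among them Cdca8, Kif2c, Kif4, Bub3 and Cenpa, also lie inside their GENCODE genes.

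**Figure D2:**
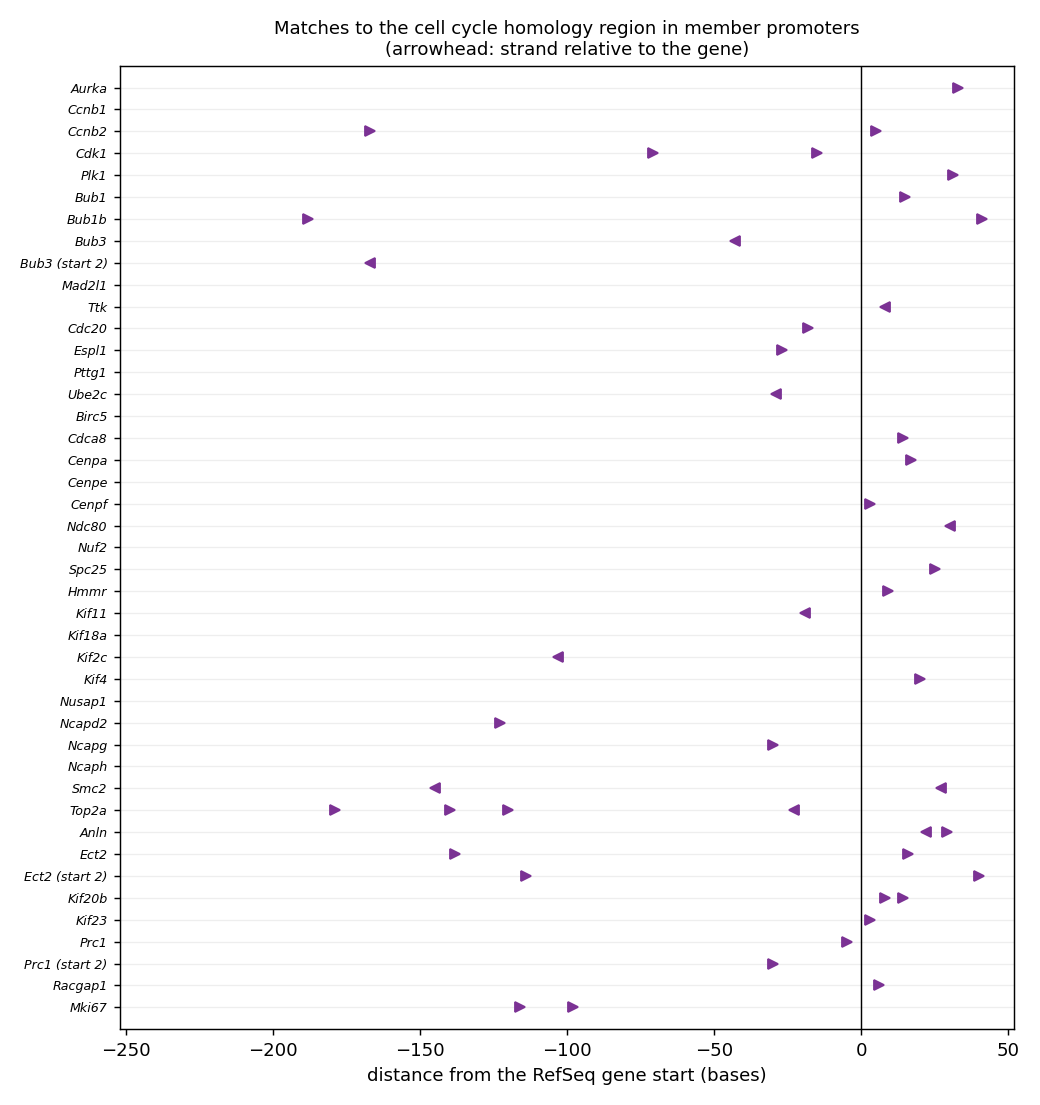
Position of each TTTGAA or TTCGAA match (arrowheads, pointing along the strand on which the word reads) relative to the RefSeq gene start at 0, for the 43 windows of 40 genes; the horizontal axis is distance in bases. In 28 of the 40 genes a match begins within 50 bases of the start, and rows without an arrowhead hold no match.

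The kinases and cyclins that drive mitotic entry were mostly higher. Of the 7 genes, 5 rose and 1 fell with shMed1 #2, and 5 rose and 0 fell with shMed1 #4, with median log2 fold changes of 0.18 and 0.32. The share higher was 71.4% with each hairpin, beside 21.8% and 14% of all tested genes. The share lower with shMed1 #2 (14.3%) was below the 21.9% of all tested genes. Cdk1, the kinase that drives entry, measured 132.4, 134.8 and 126.4 CPM in NTC, 170.7, 170.6 and 164.2 CPM with shMed1 #2, and 187.2, 168.8 and 166.9 CPM with shMed1 #4. All hairpin libraries were above all NTC libraries, and the hairpin groups overlapped. The log2 fold changes were 0.36 (SE 0.0491, adjusted p = 1.92e-09) and 0.41 (SE 0.049, adjusted p = 6.86e-11), and the difference between the hairpins was 0.05 (95% interval -0.05 to 0.14, adjusted p = 0.498).

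Aurka, the Aurora kinase of centrosomes and spindle poles, measured 164.1, 159.9 and 157.7 CPM in NTC, 203.1, 204.4 and 204.3 CPM with shMed1 #2, and 217.6, 227.2 and 213.0 CPM with shMed1 #4. The 3 groups did not overlap, in the order NTC, shMed1 #2, shMed1 #4, but the difference between the hairpins was not called (0.10, adjusted p = 0.071). Its log2 fold change against NTC was 0.345 with shMed1 #2 and 0.45 with shMed1 #4. Ccna2, the cyclin of S phase and early mitosis, rose from a mean of 465.1 CPM by 0.29 and 0.32. Plk1, the polo kinase of centrosomes, kinetochores and the midzone, measured 140.5, 148.7 and 140.2 CPM in NTC, 169.9, 149.7 and 161.0 CPM with shMed1 #2, and 182.2, 179.1 and 180.0 CPM with shMed1 #4. Each hairpin group was above NTC, and shMed1 #4 was the higher. Plk1 rose by 0.16 with shMed1 #2 (adjusted p = 0.00412), a call lost without shMed1 #2 library 1 (adjusted p = 0.0641), and by 0.33 with shMed1 #4 (adjusted p = 2.44e-08).

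The B-type cyclins moved in opposite directions with shMed1 #2. Ccnb1, the main partner of Cdk1, measured 132.7, 142.9 and 138.6 CPM in NTC, 150.4, 156.0 and 161.5 CPM with shMed1 #2, and 130.1, 144.7 and 134.9 CPM with shMed1 #4. Only the shMed1 #2 group stood above NTC, by 0.18 (adjusted p = 0.00219), and the value with shMed1 #4 was -0.02 (adjusted p = 0.847). Ccnb2, a B-type cyclin of the Golgi, measured 82.18, 83.15 and 85.1 CPM in NTC, 73.46, 78.26 and 70.88 CPM with shMed1 #2, and 89.02, 88.7 and 92.05 CPM with shMed1 #4. It fell with shMed1 #2 (-0.17, adjusted p = 0.0125), a call lost without NTC library 3 or shMed1 #2 library 3 (adjusted p up to 0.089), and the value with shMed1 #4 was 0.11 (adjusted p = 0.159). Between the hairpins Ccnb1 was lower with shMed1 #4 (-0.19, SE 0.0492, adjusted p = 0.00162) and Ccnb2 was higher (0.28, adjusted p = 8.6e-05). Aurkb, the kinase of the chromosomal passenger complex, measured 96.24, 101.8 and 97.84 CPM in NTC, 107.0, 102.8 and 98.88 CPM with shMed1 #2, and 125.9, 116.4 and 119.3 CPM with shMed1 #4. The NTC and shMed1 #2 groups overlapped (0.06, adjusted p = 0.376), while every shMed1 #4 library was higher than both (0.29, adjusted p = 6.98e-06 against NTC).

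**Figure D3:**
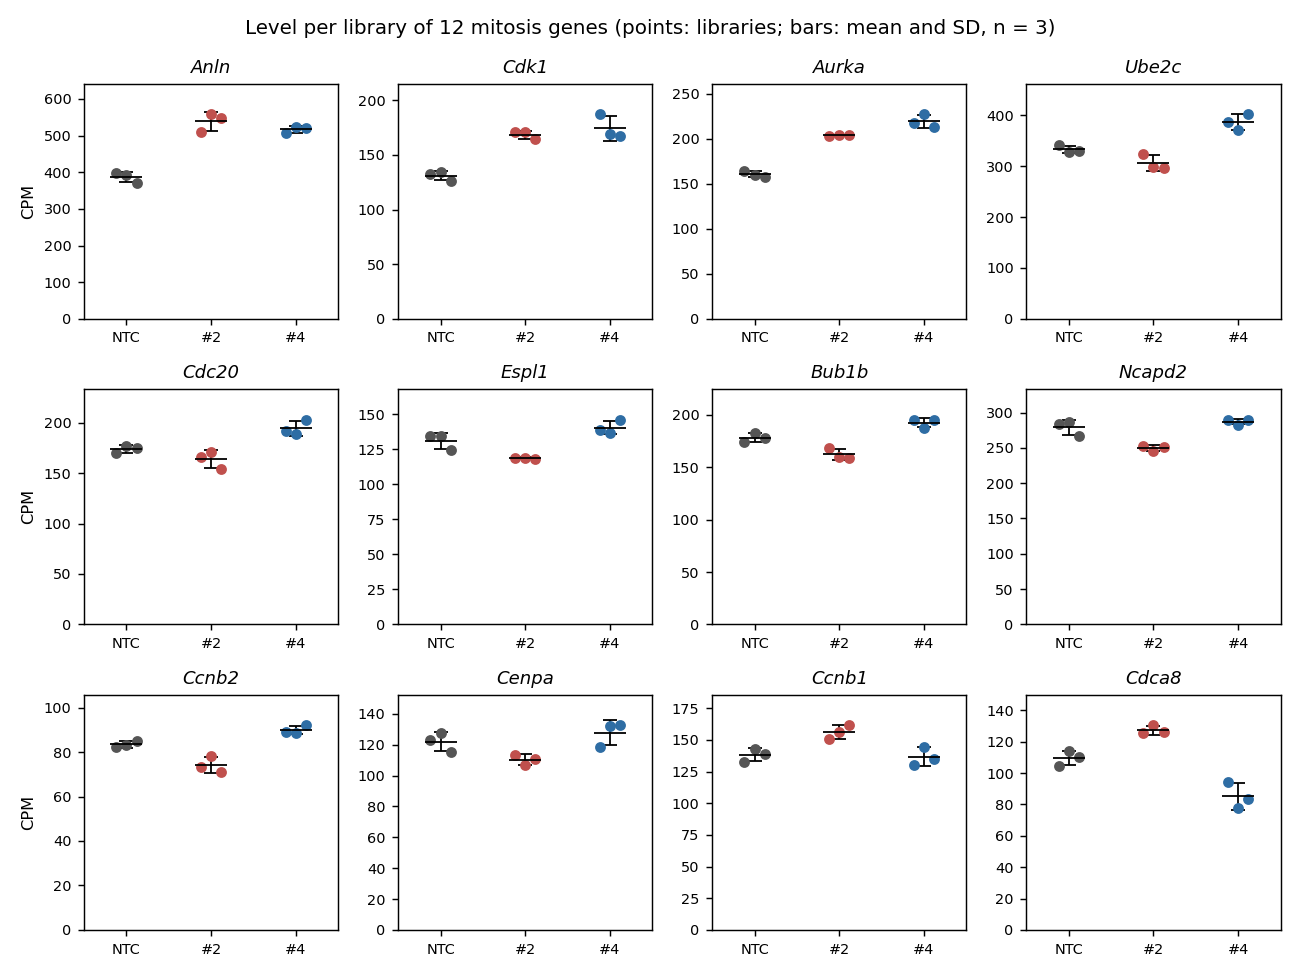
CPM (vertical axis, from 0) of 12 of the genes in each library of NTC, shMed1 #2 and shMed1 #4; points are libraries, and horizontal bars give the mean and SD (n = 3). Anln, Cdk1 and Aurka were higher with both hairpins, while Ube2c was at 296.4 to 324.7 CPM with shMed1 #2 and at 370.9 to 401.8 CPM with shMed1 #4.

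Spindle checkpoint genes, whose products hold back anaphase until chromosomes are attached, also held calls in both directions with shMed1 #2. Of 5 genes, 3 rose and 1 fell with shMed1 #2, and 3 rose and 0 fell with shMed1 #4. The share higher was 60% with each, beside 21.8% and 14% of all tested genes. The share lower with shMed1 #2 (20%) was near the 21.9% of all tested genes. Bub1, a kinetochore kinase that recruits other checkpoint proteins, measured 188.0, 182.0 and 185.3 CPM in NTC, 231.7, 248.8 and 241.2 CPM with shMed1 #2, and 211.1, 234.2 and 220.0 CPM with shMed1 #4. It rose by 0.38 (adjusted p = 2.97e-11) and 0.26 (adjusted p = 3.05e-06), both groups lying above NTC. Ttk, the Mps1 kinase that starts the signal, rose by 0.24 and 0.22. Mad2l1, which holds Cdc20 inactive, rose by 0.15 and 0.17; the first call was not kept under library size alone, nor without NTC library 2 or 3 or shMed1 #2 library 2 (adjusted p up to 0.0991), and the second without NTC library 3 (adjusted p = 0.0897). Bub1b encodes BubR1, which joins Mad2 in the inhibitor of the anaphase-promoting complex. It measured 174.4, 183.2 and 177.7 CPM in NTC, 168.5, 159.5 and 158.8 CPM with shMed1 #2, and 195.4, 187.7 and 195.2 CPM with shMed1 #4. The 3 groups did not overlap, with shMed1 #2 lowest and shMed1 #4 highest. Against NTC it fell with shMed1 #2 (-0.14, adjusted p = 0.0117), a call lost without NTC library 2 or shMed1 #2 library 2 or 3 (adjusted p up to 0.0693), and was not called with shMed1 #4 (0.11, adjusted p = 0.057). Bub3, the partner of both Bub kinases, was called with neither hairpin against NTC (-0.08 and 0.09).

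The 4 genes of anaphase onset were each higher with shMed1 #4 than with shMed1 #2. With shMed1 #2, 0 rose and 2 fell (50%), with a median log2 fold change of -0.10, beside 21.9% of all tested genes called lower. With shMed1 #4, 3 rose (75%) and 0 fell, with a median of 0.19, beside 14% of all tested genes called higher. Ube2c, the ubiquitin-conjugating enzyme of the anaphase-promoting complex, measured 340.8, 327.2 and 330.1 CPM in NTC, 324.7, 297.8 and 296.4 CPM with shMed1 #2, and 387.3, 370.9 and 401.8 CPM with shMed1 #4. The groups did not overlap, NTC lying between the hairpins. It fell with shMed1 #2 (-0.12, adjusted p = 0.019), a call lost without NTC library 1 or shMed1 #2 library 2 or 3 (adjusted p up to 0.128), and rose with shMed1 #4 (0.22, adjusted p = 2.91e-05). The difference between the hairpins was 0.34 (SE 0.0428, adjusted p = 7.69e-10). Of its exon bases, 22.8% overlap Tnnc2 on the other strand, and whether the counting used strand is unknown.

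Cdc20 encodes the activator of the anaphase-promoting complex that the checkpoint holds inactive. It measured 169.9, 177.4 and 175.2 CPM in NTC, 166.2, 171.5 and 154.4 CPM with shMed1 #2, and 192.2, 188.9 and 203.0 CPM with shMed1 #4. NTC and shMed1 #2 overlapped (-0.09, adjusted p = 0.133), and the shMed1 #4 libraries were above both (0.16 against NTC, adjusted p = 0.00522). Pttg1, the gene of securin, which keeps separase inactive, measured 85.33, 84.24 and 90.31 CPM in NTC, 94.61, 81.04 and 99.0 CPM with shMed1 #2, and 119.9, 116.5 and 105.1 CPM with shMed1 #4. It rose with shMed1 #4 alone (0.39, adjusted p = 1.19e-07, against 0.08, adjusted p = 0.296), and the difference between the hairpins was 0.31 (adjusted p = 1.61e-05). Espl1, the gene of separase, measured 134.1, 134.2 and 124.6 CPM in NTC, 119.0, 119.0 and 118.2 CPM with shMed1 #2, and 138.8, 136.7 and 146.0 CPM with shMed1 #4. It fell with shMed1 #2 (-0.14, adjusted p = 0.0171), a call lost without NTC library 1 or 2 or shMed1 #2 library 3 (adjusted p up to 0.0829), and was not called with shMed1 #4 (0.10, adjusted p = 0.118). Its 3 groups did not overlap, shMed1 #2 being lowest.

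The chromosomal passenger complex corrects faulty attachments and later marks the cleavage plane. Its scaffold gene Incenp rose with shMed1 #4 (0.18, adjusted p = 0.00184) and was not called with shMed1 #2 (0.09). Birc5, the gene of survivin, measured 138.5, 145.8 and 130.1 CPM in NTC, 160.0, 163.1 and 171.5 CPM with shMed1 #2, and 164.9, 165.6 and 159.9 CPM with shMed1 #4. All hairpin libraries were above NTC, with log2 fold changes of 0.26 and 0.24 (adjusted p = 7.8e-06 and 4.19e-05). Cdca8, the gene of borealin, which binds survivin and Incenp, measured 104.8, 114.0 and 110.3 CPM in NTC, 125.3, 130.5 and 126.1 CPM with shMed1 #2, and 94.38, 77.87 and 83.35 CPM with shMed1 #4. The 3 groups did not overlap, and shMed1 #4 was lowest. It rose with shMed1 #2 (0.21, SE 0.0537, adjusted p = 0.000617) and fell with shMed1 #4 (-0.36, SE 0.0566, adjusted p = 1.78e-07), and the difference of -0.58 (SE 0.0554, adjusted p = 1.85e-14) was the largest in size between the hairpins among the 48 genes. It was the only member called lower with shMed1 #4 in the fit over all samples.

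Kinetochore genes encode the plates that join centromeres to microtubules. Of 7, 5 rose and 1 fell with shMed1 #2, and 3 rose and 0 fell with shMed1 #4. The shares higher were 71.4% and 42.9%, beside 21.8% and 14% of all tested genes. The share lower with shMed1 #2 (14.3%) was below the 21.9% of all tested genes. Of the NDC80 complex, which grips microtubules, Spc25, Ndc80 and Nuf2 were called higher with both hairpins and Spc24 with neither. Spc25 measured 33.33, 30.85 and 33.0 CPM in NTC, 40.46, 43.19 and 46.79 CPM with shMed1 #2, and 42.71, 43.45 and 42.31 CPM with shMed1 #4. All hairpin libraries were above NTC, by 0.42 (adjusted p = 4.7e-06) and 0.40 (adjusted p = 2.93e-05). Ndc80 rose by 0.34 and 0.37 and Nuf2 by 0.32 and 0.21, while Spc24, with the fewest counts of any member (30.68 CPM in NTC), was not called (0.12 and 0.185). Cenpa, the centromeric histone, measured 123.3, 127.3 and 115.3 CPM in NTC, 113.5, 106.8 and 111.0 CPM with shMed1 #2, and 118.7, 132.4 and 132.6 CPM with shMed1 #4. The shMed1 #2 libraries were the lowest (-0.14, adjusted p = 0.0218), a call lost with DESeq2 and without NTC library 1 or 2 or shMed1 #2 library 2 (adjusted p up to 0.141), and NTC and shMed1 #4 overlapped (0.07, adjusted p = 0.348). The motor gene Cenpe rose with shMed1 #2 (0.18) and was not called with shMed1 #4 (0.09). Cenpf, a large outer kinetochore protein, rose with shMed1 #2 (0.26, adjusted p = 0.0212) and was at 0.04 with shMed1 #4. The first of these calls was lost with library size alone and without NTC library 2 or 3 or shMed1 #2 library 2 (adjusted p up to 0.0714).

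Spindle genes, mostly motors and proteins that bundle or nucleate microtubules, were higher with few exceptions. Of 7, 6 rose with each hairpin (85.7%) and 0 fell, with medians of 0.23 and 0.24, and 7 of 7 were called against the mean of both. Of all tested genes, 21.8% were higher with shMed1 #2, 14% with shMed1 #4 and 19.7% against the mean of both. Kif4, a chromosome-bound motor that shortens midzone microtubules, measured 101.3, 96.41 and 93.44 CPM in NTC, 129.0, 134.8 and 128.4 CPM with shMed1 #2, and 116.0, 123.2 and 119.4 CPM with shMed1 #4. The groups did not overlap, and it rose by 0.43 (adjusted p = 3.69e-11) and 0.30 (adjusted p = 2.74e-06). Kif18a, the motor that damps chromosome oscillations, rose by 0.35 and 0.33, and Tpx2, the activator of Aurora A on the spindle, by 0.23 and 0.31. Hmmr, which helps focus spindle poles, rose by 0.23 and 0.19. Kif11, the motor that pushes the poles apart, rose by 0.12 and 0.17, of which the first was called in 11 of 19 alternative settings and lost, among others, without NTC library 2 or shMed1 #2 library 1 or 2 (adjusted p up to 0.2). Kif2c, which takes microtubules apart at centromeres, gave 0.12 (adjusted p = 0.0416, called in 8 of 19 settings and lost without any 1 NTC library or shMed1 #2 library 1 or 2, up to 0.233) and 0.13 (adjusted p = 0.0552). Against the mean of both, Kif2c (adjusted p = 0.0188) was called in 12 of 18 settings and lost, among others, without NTC library 1 or 2 or shMed1 #2 library 2 (up to 0.105). Nusap1, a microtubule bundler, measured 108.7, 106.9 and 112.8 CPM in NTC, 105.9, 121.0 and 117.6 CPM with shMed1 #2, and 130.8, 137.3 and 120.2 CPM with shMed1 #4. Its NTC and shMed1 #2 values overlapped (0.07, adjusted p = 0.319) and it rose with shMed1 #4 (0.24, adjusted p = 0.000214).

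Condensin compacts chromosomes and topoisomerase II untangles them. Of the 6 genes of this subgroup, 5 rose and 1 fell with shMed1 #2, and 4 rose and 0 fell with shMed1 #4. The shares higher were 83.3% and 66.7%, beside 21.8% and 14% of all tested genes. The share lower with shMed1 #2 (16.7%) was below the 21.9% of all tested genes. Top2a measured 562.8, 545.8 and 531.3 CPM in NTC, 632.9, 633.1 and 650.5 CPM with shMed1 #2, and 653.4, 694.0 and 625.5 CPM with shMed1 #4. Its hairpin groups were above NTC and overlapped each other, with log2 fold changes of 0.225 (adjusted p = 2.44e-06) and 0.27 (adjusted p = 9.36e-08). Ncaph, the kleisin of condensin I, measured 122.7, 118.0 and 111.0 CPM in NTC, 148.3, 132.8 and 144.7 CPM with shMed1 #2, and 155.1, 154.6 and 137.6 CPM with shMed1 #4. It rose by 0.28 and 0.35, and Ncapg, a HEAT-repeat subunit, by 0.25 and 0.24. Ncapd2, the other HEAT-repeat subunit of condensin I, measured 283.7, 286.3 and 267.3 CPM in NTC, 253.2, 245.2 and 251.4 CPM with shMed1 #2, and 289.1, 282.9 and 289.8 CPM with shMed1 #4. Only the shMed1 #2 group stood apart from NTC, below it (-0.16, adjusted p = 0.00144), and this was the only call of a lower member with shMed1 #2 that was kept in all 19 alternative settings; the value with shMed1 #4 was 0.04 (adjusted p = 0.512). The ATPase gene Smc2 measured 168.2, 154.7 and 154.0 CPM in NTC, 177.4, 196.0 and 193.4 CPM with shMed1 #2, and 160.6, 181.0 and 165.3 CPM with shMed1 #4. It rose with shMed1 #2 (0.25, adjusted p = 1.52e-05) and overlapped NTC with shMed1 #4 (0.09, adjusted p = 0.191). Smc4, its partner ATPase, rose by 0.16 and 0.12, the second call being kept in 11 of 19 alternative settings and lost, among others, without NTC library 2 or 3 or shMed1 #4 library 1 or 2 (adjusted p up to 0.239).

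Cytokinesis genes had the highest subgroup median against the mean of both hairpins, 0.29, and all 7 were called higher in that contrast. Among these, the call of Racgap1 (0.11, adjusted p = 0.0171) was lost without NTC library 1, with upper quartile scaling, library size alone and a minimum of 4 log2 CPM (adjusted p up to 0.156). With shMed1 #2, 6 rose and 0 fell, and with shMed1 #4 also 6 and 0. The share higher was 85.7% with each, beside 21.8% and 14% of all tested genes. Anln, the gene of anillin, which ties the contractile ring to the membrane, measured 397.2, 393.5 and 371.3 CPM in NTC, 510.2, 558.0 and 547.7 CPM with shMed1 #2, and 507.1, 524.5 and 520.3 CPM with shMed1 #4. The hairpin groups overlapped each other well above NTC. The log2 fold changes were 0.48 (SE 0.0413, adjusted p = 4.79e-17) and 0.42 (SE 0.0414, adjusted p = 6.1e-14), or 39.1% and 33.6% higher. Kif20a, a midzone motor, rose by 0.40 and 0.47, and 29.3% of its exon bases overlap Cdc23 on the other strand, which itself rose by 0.30 and 0.39. Kif20b rose by 0.37 and 0.26, and Kif23, the motor of centralspindlin, by 0.26 and 0.24. Prc1, which bundles midzone microtubules, measured 225.0, 231.3 and 217.9 CPM in NTC, 258.3, 266.6 and 251.8 CPM with shMed1 #2, and 283.6, 304.2 and 290.3 CPM with shMed1 #4. Its groups did not overlap, with fold changes of 0.20 and 0.38 on the log2 scale. Exon overlaps with a gene on the other strand were smaller for Kif4 (15.1%), Ncapg (13.4%), Ccna2 (12.5%) and Prc1 (11.1%), and their part in these values was not tested.

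Centralspindlin and the exchange factor that it recruits set off the contractile ring. Of Ect2, Racgap1 and Kif23, only Racgap1 was called between the hairpins. Ect2, the exchange factor for RhoA, measured 260.2, 259.1 and 249.9 CPM in NTC, 288.8, 302.5 and 295.4 CPM with shMed1 #2, and 282.3, 276.4 and 264.8 CPM with shMed1 #4. Every hairpin library was above NTC, but only shMed1 #2 was called (0.21, adjusted p = 4.23e-05, against 0.10, adjusted p = 0.0779); the difference between the hairpins was -0.11 (95% interval -0.19 to -0.02, adjusted p = 0.054). Racgap1, the partner of Kif23 in centralspindlin, measured 305.8, 327.1 and 319.9 CPM in NTC, 325.1, 308.4 and 323.7 CPM with shMed1 #2, and 376.2, 350.5 and 370.5 CPM with shMed1 #4. NTC and shMed1 #2 overlapped (0.01, adjusted p = 0.917), and shMed1 #4 lay above both (0.20, adjusted p = 7.72e-05).

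Foxm1, the transcription factor that acts on late cell cycle promoters, measured 312.4, 321.0 and 317.3 CPM in NTC, 314.7, 302.3 and 299.9 CPM with shMed1 #2, and 337.2, 329.0 and 343.8 CPM with shMed1 #4. Neither hairpin was called against NTC (-0.05, adjusted p = 0.327, and 0.09, adjusted p = 0.11), although the shMed1 #4 libraries lay above all others. Mki67, the proliferation marker Ki-67, measured 645.0, 571.7 and 548.1 CPM in NTC, 604.4, 638.2 and 605.7 CPM with shMed1 #2, and 630.1, 680.3 and 624.0 CPM with shMed1 #4. All 3 groups overlapped, since NTC library 1 was above every shMed1 #2 library. It was not called with shMed1 #2 (0.07, adjusted p = 0.225) and was called with shMed1 #4 (0.13, adjusted p = 0.0183), a call lost with DESeq2, with library size alone as scaling, and without NTC library 2 or 3 or shMed1 #4 library 2 (adjusted p up to 0.209). Against the mean of both hairpins Mki67 was called (0.10, adjusted p = 0.0329), but the call was kept in 9 of 18 alternative settings (adjusted p up to 0.375).

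The hairpins were then compared directly, without NTC as the reference. The NTC libraries still entered the filter, the scaling and the shared estimate of the spread. Between shMed1 #4 and shMed1 #2, 15 members were higher with shMed1 #4, 5 lower and 28 not called, beside 26% of all tested genes, 12.9% higher and 13.1% lower. The median over the members was 0.04. The 4 anaphase genes, Ube2c, Pttg1, Cdc20 and Espl1, were all higher with shMed1 #4 (median 0.28). Of the 20 calls, 13 were kept in all 19 alternative settings: Ube2c, Pttg1, Ccnb2, Bub1b, Cdc20, Espl1, Aurkb, Cenpa, Ncapd2, Racgap1 and Prc1 were higher, and Ccnb1 and Cdca8 lower. The other higher calls were Nusap1, Plk1, Bub3 and Foxm1, and the other lower calls Smc2, Bub1 and Kif4. Of these, Bub1 (-0.12, adjusted p = 0.0406) was kept in 8 of 19 settings and Kif4 (-0.13, adjusted p = 0.0482) in 4. Bub1 was lost without shMed1 #2 library 2 or 3 or shMed1 #4 library 1 or 3 (adjusted p up to 0.245 over all settings), and Kif4 without these, NTC library 2 or shMed1 #2 library 1 (up to 0.191). Both were also lost when only the hairpin groups were fitted. Without shMed1 #2 library 2, Plk1 (adjusted p = 0.0851) and Smc2 (up to 0.0861, also lost without shMed1 #4 library 1) were not called. Without shMed1 #2 library 3, Foxm1 (0.0532) and Bub3 (up to 0.112, also lost without shMed1 #4 library 2) were not called. Nusap1 was lost without shMed1 #2 library 1 or shMed1 #4 library 2 (up to 0.146). The share of counts from mitochondrial genes, given above, also differed between these groups, and its part was not tested.

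**Figure D4:**
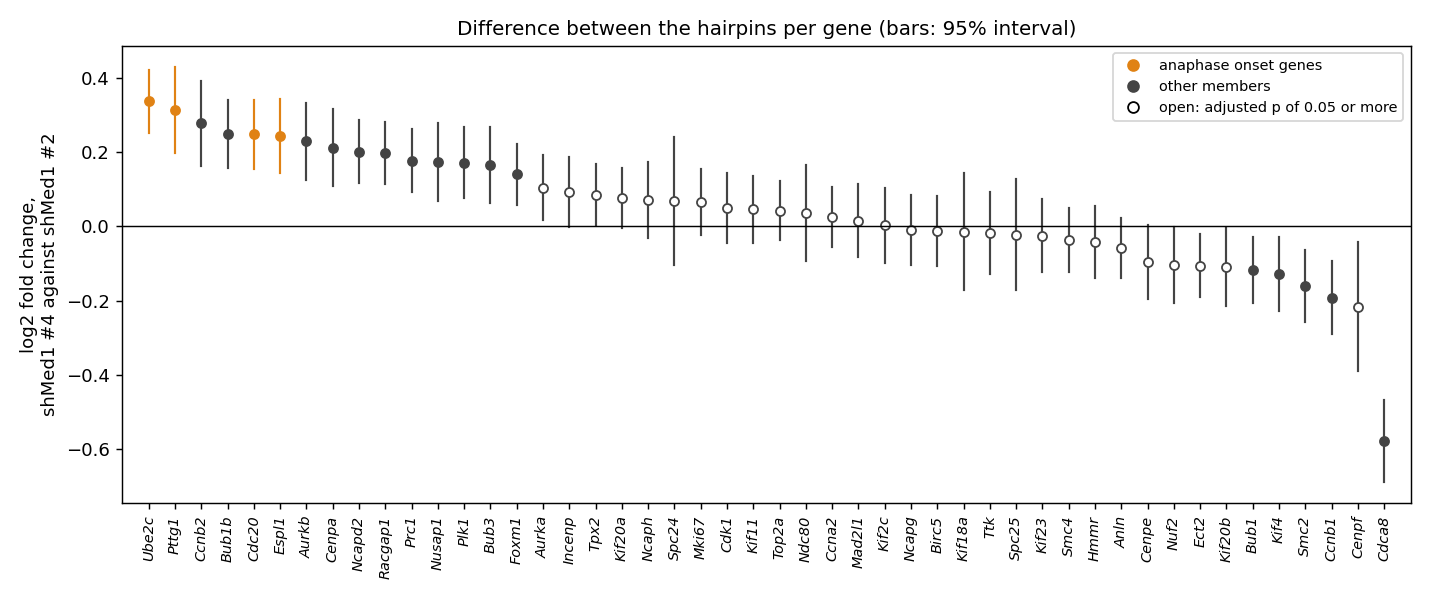
Log2 fold change of shMed1 #4 against shMed1 #2 (vertical axis) for the 48 genes in descending order; bars are 95% intervals, orange marks the 4 anaphase onset genes, and open symbols an adjusted p of 0.05 or more. The anaphase genes lie at 0.24 to 0.34 and Cdca8 at -0.58.

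Levels of the members were compared per length of exon, as NTC mean CPM per kilobase. They ran from 3.219 for Kif18a to 128 for Ube2c, with a median of 28.17. Cdc20 (93.24 CPM per kilobase), Ccna2 (113.9) and Tpx2 (80.21) were also among the high members, and Ndc80 (8.051) and Spc25 (10.16) among the low ones. Within groups, the SD of a member was 0.211% to 12.1% of its mean, with a median of 3.66%, and the lowest count of any member in any library was 235.

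A further 120 genes of the same processes were tested in the same fit. They were listed by function, but with earlier results of these data known. With shMed1 #2, 54 were higher, 13 lower and 53 not called, and with shMed1 #4, 45, 4 and 71, with medians of 0.14 and 0.13. The shares were 45% higher and 10.8% lower with shMed1 #2, and 37.5% and 3.33% with shMed1 #4. Of all tested genes, 21.8% were higher and 21.9% lower with shMed1 #2, and 14% and 14.1% with shMed1 #4. Of other spindle genes, 14 of 24 were higher and 0 lower with shMed1 #2, and 15 higher and 0 lower with shMed1 #4. Condensin II had 2 of 3 higher and 0 lower with each. Other kinetochore genes had 9 of 26 higher and 2 lower with shMed1 #2, and 8 higher and 0 lower with shMed1 #4. Their share higher with shMed1 #2 (34.6%) was near the 30.2% of tested genes whose mean reached 4 log2 CPM. With shMed1 #4 it was 30.8%, beside 19.5%. Subunits and regulators of the anaphase-promoting complex showed no common direction, with 4 of 17 higher and 3 lower with shMed1 #2, and 3 higher and 4 lower with shMed1 #4. With shMed1 #2 these shares, 23.5% and 17.6%, were near those of all tested genes. Cohesin genes had 6 of 12 higher and 3 lower with shMed1 #2, then 3 higher and 0 lower with shMed1 #4. Their share lower with shMed1 #2 (25%) was near that of all tested genes.

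Among transcriptional regulators of the cell cycle, 8 of 13 were higher and 2 lower with shMed1 #2, and 7 higher and 0 lower with shMed1 #4. The shares were 61.5% and 15.4%, then 53.8% and 0%. For all tested genes they were 21.8% and 21.9%, then 14% and 14.1%. E2f7, a repressor that is itself an E2F target, measured 61.7, 61.7 and 55.11 CPM in NTC, 99.32, 100.1 and 98.65 CPM with shMed1 #2, and 81.81, 80.39 and 83.47 CPM with shMed1 #4. Its groups did not overlap, and it rose by 0.74 and 0.46, less with shMed1 #4 (difference -0.28, adjusted p = 5.79e-05). Mybl2, the B-Myb that acts with MuvB, rose by 0.54 and 0.36, also less with shMed1 #4 (-0.17, adjusted p = 0.00194). Of the MuvB subunits, Lin52 rose by 0.41 and 0.42, while Lin37 fell with shMed1 #2 (-0.42, adjusted p = 0.00843, or 0.0897 without NTC library 3, where the call was lost) and was not called with shMed1 #4 (-0.24, adjusted p = 0.191). Cep55, which brings abscission factors to the midbody, rose by 0.46 and 0.40, and Haus2, an augmin subunit, by 0.34 and 0.47. Of the 17 genes of the anaphase-promoting complex, 4 were lower and 4 higher against the mean of both hairpins, so the share lower (23.5%) was near the 20.2% of all tested genes. Anapc11 fell by 0.27 and 0.21, Cdc26 by 0.32 and 0.18 (adjusted p = 0.0489 for the second), and Anapc5 fell with shMed1 #4 (-0.33) and was not called with shMed1 #2 (-0.06). With shMed1 #4, the call of Cdc26 was kept in 9 of 19 alternative settings, and that of Anapc11 was lost without NTC library 2 or shMed1 #4 library 1 or 2 (adjusted p up to 0.115). Cenpn, a centromere protein, fell with shMed1 #2 (-0.24, lost without shMed1 #2 library 2, adjusted p = 0.0516) and was not called with shMed1 #4 (-0.10).

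Genes of DNA replication were taken as the nearest comparison. Of 30, 16 were higher and 4 lower with shMed1 #2 (53.3% and 13.3%), beside 21.8% and 21.9% of all tested genes. With shMed1 #4, 18 were higher and 2 lower (60% and 6.67%), beside 14% and 14.1%. The median log2 fold changes of the replication genes were 0.17 and 0.16. These medians lie close to the 0.20 and 0.21 of the mitosis and cytokinesis genes, and the difference between the sets was not tested.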

How the data were processed

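RNA from 9 samples of D2A1-d cells (NTC, shMed1 #2 and shMed1 #4, 3 each) was sequenced by the authors on a BGISEQ-500 instrument, per the labels. The authors deposited raw counts per gene; STAR, HTSeq and the build GRCm38 (mm10) are named in the submitters' processing notes. Not given in the sources used here are tool versions, the release of the annotation and the strand setting, and reads of overlapping genes on opposite strands cannot be told apart. Symbols, positions and exon lengths come from GENCODE M21 on GRCm38. Genes kept by filterByExpr (13611) were tested with edgeR 4.0.16 in R 4.3.3: TMM scaling, 1 coefficient per group over all 9 samples, a robust quasi-likelihood fit, and Benjamini-Hochberg adjustment over all genes tested. Standard errors and 95% intervals come from that fit, whose common biological coefficient of variation was 3.68%. A count of 3 equals 0.345 to 0.364 CPM. Replicates were compared pairwise by chi-square over all genes, and each pair differed beyond counting error (1.54 to 2.49 per degree of freedom). The script was tested on simulated counts. Over the comparisons, 35.4% to 42% of 1.2-fold and 71.4% to 89.8% of 1.5-fold changes were called in the right direction. False calls made up 4.27% to 6.79% of calls. A gene not called may therefore still have changed. The simulation changed few genes, at any level of expression, so these shares need not hold for the members. The members and all lists were chosen with earlier results of these data known. The rule for named genes took the highest and lowest member of each subgroup, set genes such as Cdk1 and Ect2, all members called lower or called between the hairpins, and the 5 highest and 5 lowest of the 120 other genes; the remaining members are given to account for the whole set, and Cdc23 was added after its value was seen. Not every marker on the lists is reported here. Promoters come from RefSeq (GRCm38.p6). Alternatives were other scalings and filters, DESeq2 1.42.0, a non-robust fit, only the groups compared, a replicate block, each library left out, and motif windows before the start.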

Additional observations from a re-analysis of the deposited data

Results flagged for a closer look

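Of the 48 genes, 20 differed between the hairpins when shMed1 #4 was tested directly against shMed1 #2 (edgeR's quasi-likelihood test, adjusted p under 0.05), beside 26% of all tested genes. The log2 fold changes above 0, higher with shMed1 #4, were those of the anaphase genes Ube2c (0.34), Pttg1 (0.31), Cdc20 (0.25) and Espl1 (0.24). Among cyclins and kinases they were those of Ccnb2 (0.28), Aurkb (0.23) and Plk1 (0.17). Checkpoint genes Bub1b (0.25) and Bub3 (0.165), the centromeric histone gene Cenpa (0.21) and the condensin gene Ncapd2 (0.20) followed. The midzone genes Racgap1 (0.20) and Prc1 (0.18), the bundler gene Nusap1 (0.17) and Foxm1 (0.14) were also higher. Lower with shMed1 #4 were Cdca8 (-0.58), Ccnb1 (-0.19), Smc2 (-0.16), Kif4 (-0.13) and Bub1 (-0.12). The share of counts from mitochondrial genes was 4.31% to 4.52% with shMed1 #4 and 3.89% to 3.97% with shMed1 #2, and its part in these differences was not tested.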

How the results depend on the processing

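Each pairwise result was recomputed under 19 alternative settings (18 for Lin37, which a mean of at least 4 log2 CPM leaves out); 28 of 38 member calls with shMed1 #2, 31 of 34 with shMed1 #4 and 13 of 20 between the hairpins held in every one, and no called value changed sign. The counts of called members stayed within 1.5 times of those reported except for lower calls. Members lower with shMed1 #4 than with shMed1 #2 numbered 3, in place of 5, with upper quartile scaling, library size alone, at least 50 counts in 3 samples, a mean of at least 4 log2 CPM, or DESeq2. Members lower against the mean of both hairpins numbered 1 with library size alone. With shMed1 #2 the median log2 fold change of the 48 genes was 0.1747, 0.1564 and 0.1713, and that of the checkpoint genes 0.1208, 0.1025 and 0.1175, with upper quartile scaling, library size alone and the 4 log2 CPM minimum. Library size alone also gave medians with shMed1 #2 of -0.1512 (anaphase), 0.1272 (kinases and cyclins), 0.1657 (passenger complex) and -0.0409 (Foxm1 and Mki67), and against the mean of both hairpins 0.1352 (all 48), 0.1219 (checkpoint) and 0.0222 (Foxm1 and Mki67). The cause of these shifts was not tested. Leaving out 1 library at a time, the members lower with shMed1 #2 numbered 2 to 6 (3 without NTC library 1, NTC library 2 or shMed1 #2 library 2, and 2 without shMed1 #2 library 3). Those lower between the hairpins numbered 2 to 8 (2 without shMed1 #2 library 2, 3 without shMed1 #2 library 3 or shMed1 #4 library 1 or 3, and 8 without shMed1 #4 library 2). The same omissions gave median ranges with shMed1 #2 of 0.1129 to 0.2078 (checkpoint) and 0.2051 to 0.3279 (kinetochore), with shMed1 #4 of 0.1266 to 0.2046 (checkpoint), 0.2334 to 0.324 (cytokinesis) and 0.1344 to 0.2619 (kinetochore), and against the mean of both of 0.1662 to 0.2111 (all 48), 0.1197 to 0.214 (checkpoint) and 0.1015 to 0.2545 (kinetochore). Between the hairpins the cytokinesis median ran from -0.0469 to 0.0342, so it has no settled sign. In only the bases before the gene start, TTTGAA was found in 15 members, TTTGAA or TTCGAA in 16 and TTCCCGC in 0. Replicate numbers did not pair the samples: deviations of same-numbered libraries correlated at -0.041 to 0.042. With the replicate number as a block, 32 members were higher and 6 lower with shMed1 #2, 33 and 1 with shMed1 #4, 35 and 0 against the mean of both, and 15 and 4 between the hairpins. Counting error limits the least abundant member most, Spc24, with 235 counts in its lowest library.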
